A study of Mus musculus with 18 samples.

Results

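Rxfp1 encodes the relaxin receptor, and its RNA was followed in mouse embryonic limb buds in 18 libraries. The gene was chosen from these data, because it was high in hindlimb against forelimb buds and was of interest in hindlimbs without Pitx1, the homeodomain factor of the hindlimb. It is 1 of 14686 genes that appear in at least 1 of the 3 deposited tables, and 1 of 12677 that appear in all of them. Since the values below chose it, they are given as a description with no test of the gene itself.

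The libraries fall into 6 groups of 3. CD1 wild-type embryos gave forelimbs, taken at e10.5, and hindlimbs, taken at e11.0, stages that the study design matches by form, so that limb and embryonic day cannot be told apart in this comparison. BALB/c embryos, wild type or Pitx1 null, gave hindlimbs on both later days, e11.0 and e11.5. Ribosomal RNA depletion with strand kept was used up to e11.0, and mRNA enrichment at e11.5, stranded in replicates 1 and 2 and unstranded in replicate 3. Replicates 1 and 2 of all groups share a sequencing run by their titles. In the BALB/c groups replicate 3 has another run, which differs between e11.0 and e11.5. For CD1 replicate 3 no run is named, and the fits took it as another run, which the labels do not state. The labels do not say which part of Pitx1 is removed in the null, how many embryos a library holds, or whether replicates are separate litters, so the p-values measure the spread between these libraries, which may be technical.

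RXFP1 is a receptor of the leucine-rich repeat-containing G protein-coupled family, with a large outer domain that binds the peptide hormone relaxin and a membrane-spanning domain that couples mainly to the stimulatory G protein. Binding of relaxin raises cyclic AMP, which is made by adenylyl cyclases, acts through protein kinase A and the CREB factors, and is broken down by phosphodiesterases. Relaxin signalling is best known for loosening connective tissue of the birth canal and for lowering collagen output of fibroblasts. RXFP2, its closest relative, is the receptor of INSL3 and acts in testis descent. In GRCm38 with GENCODE release M 21, Rxfp1 (ENSMUSG00000034009) lies on the minus strand of chromosome 3, from 79641611 to 79737880, with 10.052 kb of exon sequence.

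Levels are CPM, the reads of a gene per 1000000 reads (M) on all genes of its table, each table being scaled by itself. A library held between 17.4 M reads, in the e11.0 table, and 53.6 M, in the e11.5 table, on these genes, and the CD1 libraries held 24.5 to 45.0 M. The labels were checked on the targeted gene and on the limb regulators. Pitx1 was at 0.352 ± 0.10 CPM (SD, n = 3) in CD1 forelimb and 209 ± 22.5 CPM in CD1 hindlimb. In the null it was lower by 2.49 on the log2 scale at e11.0 (−2.49 ± 0.09, SE) and by 2.07 at e11.5 (−2.07 ± 0.05). Of 11 fixed hindlimb and forelimb regulators 7 were higher and 4 lower in CD1 hindlimb, among them Tbx5, the T-box factor of the forelimb, at 103 and 0.156 CPM on average, while 5.87% of all genes were called. In the e11.0 null 1 was higher and 4 lower of 10 listed, beside 13.1% of all genes called. In the e11.5 null 0 were higher by limma and 2 lower, beside 10.8%. The targeted Pitx1 is itself among the lower ones on both days. All 8 limb mesenchyme markers were listed in every table, and no listed marker of any cell type examined was at 0 in a library. RNA of bulk buds was measured, so fewer cells of a type and less RNA per cell cannot be told apart.

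In CD1 buds, Rxfp1 RNA was near the counting floor in the forelimb and plainly present in the hindlimb. The forelimb libraries held 1, 2 and 0 reads of the gene, equal to 0.0385, 0.0816 and 0 CPM. The library at 0 allows up to 0.0666 CPM at 3 reads. The hindlimb libraries held 119, 97 and 213 reads, equal to 4.02, 3.82 and 7.61 CPM. Each hindlimb library therefore stood above every forelimb library, and replicate 3 was the highest of the hindlimb group. Groups failed to overlap in this direction for 5.87% of all listed genes.

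The group means were 0.0400 ± 0.0408 CPM for forelimb and 5.15 ± 2.13 CPM for hindlimb. Pooled over libraries, 3 reads in 95.5 M stood against 429 in 83.0 M, a ratio of 165 with a 95% exact counting interval of 56.0 to 802, which covers counting error only. On the log2(CPM + 1) scale the difference was 2.51 ± 0.17 (SE), and with a pseudocount of 0.25 it was 4.16, because this scale understates the change of a gene near 0. In all, 326 of 13540 listed genes (2.41%) were called higher in hindlimb by limma at an adjusted p under 0.05 and 469 (3.46%) were called lower. By size of the log2 difference Rxfp1 stood 7th among all listed genes, between Isl1 at 2.77, a LIM-homeodomain factor that acts in hindlimb initiation, and Hoxc9 at 2.43, a posterior Hox gene. Its level stayed modest even so. Between 18.5% and 26.6% of the listed genes were below it in the 3 hindlimb libraries. Beside it, 2 of 4 listed muscle precursor markers (summing to 107 to 142 CPM in forelimb and 82.8 to 112.2 CPM in hindlimb) and 3 of 8 limb mesenchyme markers (1256 to 1665 CPM and 1170.3 to 1458 CPM) were lower in CD1 hindlimb. Endothelial, ectoderm and nerve markers each had 1 lower and the erythroid ones 1 higher, and their part in the Rxfp1 values was not tested.

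**Figure D1:**
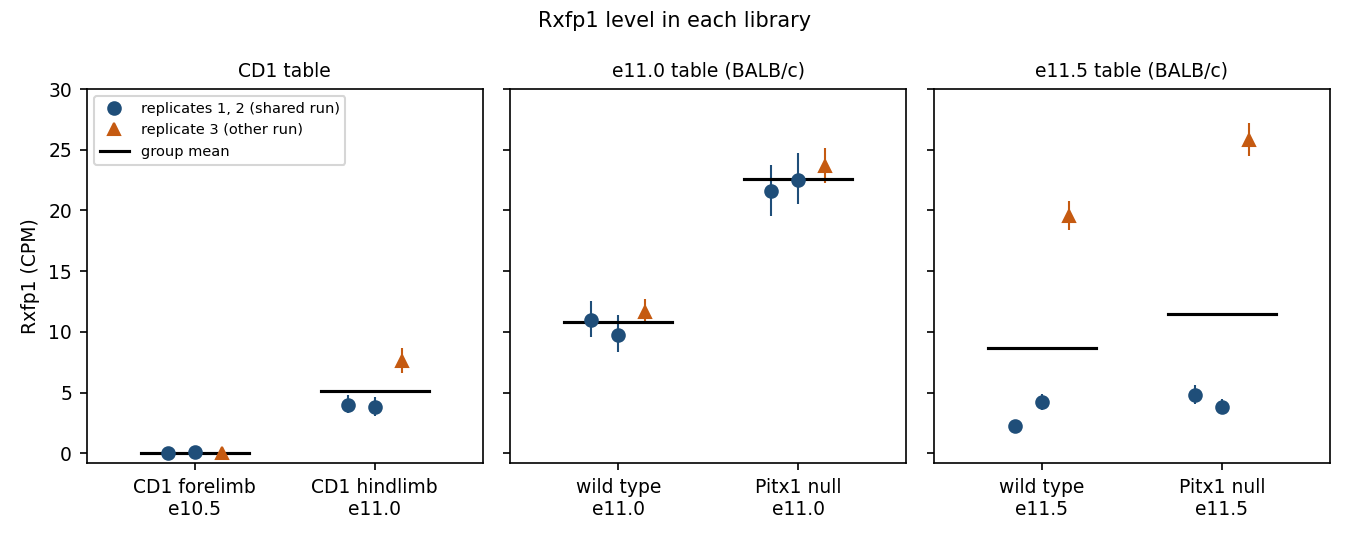
Rxfp1 level in CPM (vertical axis, linear) in each of the 18 libraries, 1 panel for each deposited table. Circles are replicates 1 and 2 (shared run), triangles are replicate 3, vertical bars are 95% exact Poisson counting intervals and horizontal bars are group means. At e11.0 the 3 null libraries sit between 21.6 and 23.7, all above the wild-type libraries, while at e11.5 replicate 3 stands far above replicates 1 and 2 in both groups.

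In e11.0 hindlimbs, Rxfp1 was higher without Pitx1 than with it. The wild-type libraries were at 11.002, 9.78 and 11.6 CPM, from 214, 170 and 499 reads. The null libraries were at 21.6, 22.5 and 23.7 CPM, from 406, 457 and 1045 reads. The lowest null library was above the highest wild-type library, and each group spread over less than the gap between them. Groups failed to overlap in this direction for 4.78% of all genes.

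The means were 10.8 ± 0.945 CPM with Pitx1 and 22.6 ± 1.05 CPM without it, a ratio of 2.09. The ratio of same-numbered libraries was 1.96, 2.30 and 2.03. The log2 difference was 1.0 ± 0.09 (SE), and it ran from 0.95 to 1.04 when each library was left out in turn. At this age 664 of 14027 genes (4.73%) were called higher in the null and 1179 (8.41%) lower. The split depended on the scaling, with 1064 higher and 524 lower under trimmed-mean (TMM) scaling, 1326 and 403 under median-ratio scaling and 984 and 567 under upper-quartile scaling. Rxfp1 stood 12th by log2 difference, between Epha3, an ephrin receptor, at 1.0 and Hic1, a transcriptional repressor, at 0.95. Rxfp1 was thus higher in the group with more Pitx1 RNA in CD1, and in the group with less of it here.

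Markers of other cell types differed beside it at e11.0. The summed level of the 11 endothelial markers was 218 to 300 CPM in wild type against 125 to 229 CPM in the null. Of the 11, 9 were called lower, beside 8.41% of all genes, and 0 to 9 when a library was left out. That endothelial count was 5 under TMM or upper-quartile scaling, 4 under median-ratio scaling and 0 in replicates 1 and 2 alone. The 10 surface ectoderm markers summed to 316 to 786 CPM in wild type against 417 to 941 CPM in the null. Of the 10, 5 were called higher, beside 4.73% of all genes, and 0 to 9 when a library was left out. Of the 4 listed muscle precursor markers 3 were lower, their sums being 83.5 to 94.7 CPM and 64.6 to 72.1 CPM. Of the 8 limb mesenchyme markers 4 were lower, with sums of 986 to 1330 CPM and 722 to 1028 CPM. Both counts stand beside the 8.41% of all genes called lower. Of the listed erythroid, macrophage and nerve markers 0 were called by limma. At an unadjusted p under 0.05, for which no share of all genes is given, 3 nerve markers were higher. The part of these differences in the Rxfp1 values was not tested.

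At e11.5 the groups overlapped. Wild-type libraries were at 2.22, 4.20 and 19.6 CPM, and null libraries at 4.79, 3.84 and 25.8 CPM. In both genotypes replicates 1 and 2 were low and replicate 3 was high. The means were 8.67 ± 9.50 CPM with Pitx1 and 11.48 ± 12.4 CPM without it. Null over wild type was 2.16, 0.913 and 1.32 for replicates 1, 2 and 3, so that 1 of the 3 pairs went the other way.

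With run as a term the log2 difference was 0.37 ± 0.16 (SE). It was 0.18 without wild-type replicate 1 and 0.57 without wild-type replicate 2. In replicates 1 and 2 alone the means were 3.21 CPM with Pitx1 and 4.32 CPM without it. Here 382 of 13478 genes (2.83%) were called higher in the null and 1073 (7.96%) lower, and 691 and 917 under TMM scaling or 743 and 919 under median-ratio scaling. Whether the difference at e11.5 is smaller than at e11.0 was not tested, since both the RNA selection and the table changed with the day. Of the listed muscle precursor markers 6 of 6 were lower in the null at this age, with sums of 106 to 123.2 CPM and 71.7 to 80.9 CPM. Of the 8 limb mesenchyme markers 4 were higher and 1 lower, and 2 endothelial, 2 macrophage and 1 nerve marker were lower and 1 ectoderm marker higher. Their part in the Rxfp1 values was not tested.

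The gap between replicate 3 and the other libraries at e11.5 was among the widest of the table for Rxfp1. Replicate 3 was 6.09 times the mean of replicates 1 and 2 in wild type and 5.98 times in null. On the log2 scale the mean gap was 2.33, and 11 of 13478 genes had a larger positive one, against a median absolute gap of 0.235 over all genes. The same ratio for Rxfp1 was 1.12 and 1.07 at e11.0 and 1.94 in CD1 hindlimb. Replicate 3 differed from the others in its unstranded preparation as well as its run, and which of these features moves with Rxfp1 was not tested. The annotation places no gene on the strand opposite to Rxfp1, and the adjoining gene 4930579G24Rik ends 8.79 kb away. Whether reads from outside the annotated genes enter the replicate 3 counts was not tested. Because replicate 3 stands apart, levels of Rxfp1 at e11.5 are read within a run only.

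Per kb of exon, the group means were 0.00398 CPM per kb in CD1 forelimb and 0.512 in CD1 hindlimb, 1.08 in e11.0 wild type and 2.25 in e11.0 null, and 0.862 in e11.5 wild type and 1.14 in e11.5 null. Within a table, the CD1 groups and the e11.0 groups were parted without overlap, while the e11.5 groups had SDs larger than their means and overlapped. In replicates 1 and 2 alone the means were 3.92 CPM in CD1 hindlimb, 10.4 CPM in e11.0 wild type and 3.21 CPM in e11.5 wild type. The tables were scaled separately and the e11.5 libraries were made by mRNA enrichment, so no order of levels is given across them.

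An annotated transcript inside the gene gave a second reading of the locus. Gm26984 (ENSMUSG00000098204) is a sense intronic RNA on the same strand, from 79673367 to 79676876 on chromosome 3 in GRCm38, and it shares 0 exon bases with Rxfp1. Reads from unspliced Rxfp1 RNA cannot be told apart from it. It was not listed in the CD1 table.

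Gm26984 was at 1.29, 1.5 and 1.68 CPM in e11.0 wild type and at 2.71, 2.76 and 3.40 CPM in e11.0 null, without overlap. The log2 fold change was 0.67 ± 0.12, with an adjusted p of 0.010 from limma, and the gene kept its call in 3 of the 6 fits with a library left out. At e11.5 it was at 0.394, 0.642 and 2.0 CPM with Pitx1 and 0.694, 1.32 and 2.03 CPM without it, and it was not called (0.27 ± 0.15, limma adjusted p = 0.261). Its level was 11.7% to 15.3% of that of Rxfp1 in the e11.0 libraries and 7.88% to 34.5% at e11.5, and within each table it was highest where Rxfp1 was highest.

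Few genes of the relaxin family were listed beside the receptor. The hormone genes Rln1, Rln3, Insl3 and Insl5 and the receptors Rxfp3 and Rxfp4 were not listed in any table and are not analysed here. Each gene of the tables has more than 0.5 CPM in 3 or more libraries. Insl6, an insulin-like peptide known from the testis, was listed at 0.943 to 1.5 CPM as a group mean and was not called in any comparison (limma adjusted p = 0.416, 0.441 and 0.735). Rxfp2 was at 3.17 ± 0.39 CPM in CD1 forelimb and 2.31 ± 0.30 CPM in CD1 hindlimb (log2 fold change −0.33, limma adjusted p = 0.135).

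Rxfp2 was thus present in the forelimb, in which Rxfp1 was near 0. Per kb of exon, Rxfp2 was at 0.558 CPM per kb there and at 0.406 in CD1 hindlimb. In the null against wild type Rxfp2 was not called at e11.0 (0.22 ± 0.13, limma adjusted p = 0.222). At e11.5 its group means were 3.17 ± 1.59 CPM with Pitx1 and 4.37 ± 0.80 CPM without it, and it missed the threshold (0.42 ± 0.13, limma adjusted p = 0.0643). It passed in replicates 1 and 2 alone (adjusted p = 0.0288) and with TMM (adjusted p = 0.0443) or median-ratio scaling (adjusted p = 0.0405).

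Lgr4, Lgr5 and Lgr6, receptors of R-spondins that strengthen Wnt signalling, share the leucine-rich repeat build. Lgr5 was lower in CD1 hindlimb than in forelimb, at 2.09 ± 0.08 against 3.46 ± 0.77 CPM (−0.52 ± 0.12, limma adjusted p = 0.0333). That call held in 1 of 6 fits without a library and not in replicates 1 and 2 alone (adjusted p = 0.0723). Lgr4, at 61.8 to 80.8 CPM as a group mean, and Lgr6, at 2.08 to 6.92 CPM, were not called in any of the 3 comparisons. The receptors of glycoprotein hormones in the same family, Fshr, Lhcgr and Tshr, were not listed. Of the 4 listed relatives with leucine-rich repeats 1 was therefore called in CD1, against 5.87% of all genes, and 0 by limma in either null comparison, against 13.1% and 10.8%. At an unadjusted p under 0.05, and by the authors' deposited table, 1 was higher and 3 were lower in CD1, 1 was lower at e11.0 and 2 were higher at e11.5. The authors call 1689 of 13540, 2895 of 14027 and 2644 of 13478 genes in all, and no share of all genes is given for the unadjusted p.

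Of the list of cyclic AMP signalling below the receptor, 0 genes were called higher by limma in any of the 3 comparisons. The list also holds Prkcz, Pik3cb, Pik3cg, Nos1, Nos2 and Nos3, which are not cyclic AMP genes in the strict sense. The called members named below do not include them. At an unadjusted p under 0.05, 5, 2 and 3 of its genes were higher and 12, 12 and 21 lower in CD1, at e11.0 and at e11.5. The share of all genes at that threshold is not given here, so these counts have no background beside them. The authors' deposited table calls 2, 2 and 3 higher and 10, 8 and 11 lower. Of all genes it calls 643 of 13540, 1707 of 14027 and 1176 of 13478 higher, and 1046, 1188 and 1468 lower. In CD1 hindlimb 0 of 45 listed genes were higher and 2 were lower, 4.44% beside 5.87% of all genes called, a share near that of all genes. Both are phosphodiesterases. Pde7b averaged 2.59 ± 0.56 CPM in the forelimb libraries and 1.21 ± 0.06 CPM in the hindlimb ones (−0.69 ± 0.12, limma adjusted p = 0.00952), and Pde8a was at 10.3 ± 2.71 against 6.40 ± 1.03 CPM (−0.60 ± 0.10, adjusted p = 0.00797). The list's median log2 fold change was −0.03, beside 0.01 over all genes.

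In the e11.0 null 0 of 44 were higher and 6 were lower, a share of 13.6% beside 13.1% of all genes called. Lower were the phosphodiesterases Pde8a (−0.64 ± 0.13, limma adjusted p = 0.0161) and Pde4d (−0.39 ± 0.09), the cyclases Adcy9 (−0.54 ± 0.13) and Adcy4 (−0.49 ± 0.14), the catalytic subunit Prkaca and the inhibitory G protein Gnai2. That count ran from 0 to 14 when a library was left out, was 0 in replicates 1 and 2 alone and was 2, with 2 higher, under median-ratio scaling. With the replicate number as a block it was 11, with 1 higher. The median was −0.14, beside −0.07 over all genes.

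In the e11.5 null 0 of 47 were higher and 10 were lower, 21.3% beside 10.8% of all genes. Adcy2 was at 7.34 ± 0.76 CPM with Pitx1 and 3.63 ± 0.11 CPM without it (−0.85 ± 0.09, limma adjusted p = 0.00131), and Pde8b was at 1.48 ± 0.40 against 0.46 ± 0.26 CPM (−0.77 ± 0.10, adjusted p = 0.00264). Both were called in each of the 6 fits without a library. Pde7b (−0.54 ± 0.10) and the regulatory subunit Prkar1b (−0.49 ± 0.10) were lower too, called in 4 and 3 of those fits. The other called members were Adcy4, Gnao1, Pde3a, Crtc1, Pde4a and Gnas. The lower count ran from 2 to 13 without a library and was 3, with 1 higher, in replicates 1 and 2 alone.

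**Figure D2:**
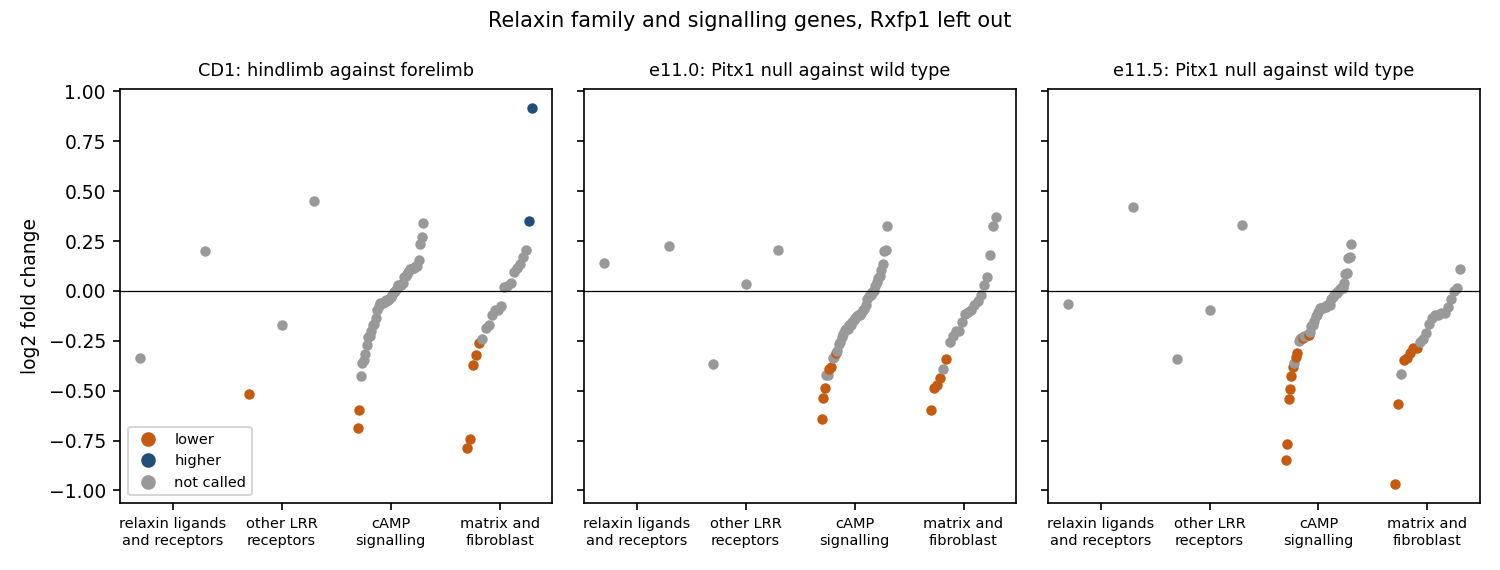
Log2 fold change on the log2(CPM + 1) scale (vertical axis) of each listed gene of 4 lists, Rxfp1 left out, 1 panel for each comparison. Each point is a gene, sorted within its list, and colours give the limma call at an adjusted p under 0.05. Of the cyclic AMP list, which also holds Prkcz, Pik3cb, Pik3cg and Nos genes, 0 were called higher and 2, 6 and 10 were called lower from left to right.

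Matrix and fibroblast genes that are studied as relaxin responses were called in both directions in CD1 and as lower in the Pitx1 null. In CD1 hindlimb 2 of 22 listed genes were higher and 5 lower, 31.8% called beside 5.87% of all genes. Acta2, smooth muscle actin, averaged 1.09 ± 0.39 CPM in the forelimb libraries and 2.90 ± 0.17 CPM in the hindlimb ones (0.92 ± 0.14, limma adjusted p = 0.00340), and Timp3, an inhibitor of matrix proteases, was higher as well (0.35 ± 0.05). Lox, which crosslinks collagen, was lower at 2.06 ± 0.42 against 4.35 ± 1.22 CPM (−0.79 ± 0.11, adjusted p = 0.00214), as were the endothelin receptor Ednrb (−0.74 ± 0.15), the vessel growth factor Vegfa (−0.37 ± 0.05), Mmp14 and Fbn1. The lower count ran from 2 to 7 without a library.

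In the e11.0 null 0 of 22 were higher and 5 lower, namely Col1a2 (−0.60 ± 0.10), Timp3 (−0.49 ± 0.10), the gelatinase Mmp2 (−0.47 ± 0.09), Tgfbr2 (−0.44 ± 0.11) and Smad3, a share of 22.7% beside 13.1% of all genes. Col1a2, a chain of type I collagen, was at 273 ± 73.3 CPM with Pitx1 and 176 ± 14.7 CPM without it (limma adjusted p = 0.00852). The lower count was 0 in replicates 1 and 2 alone and 0 to 11 without a library. At an unadjusted p under 0.05, 1 gene was higher and 10 were lower, with no share of all genes given at that threshold. In the e11.5 null 0 of 22 were higher and 7 lower, led by Acta2 (−0.97 ± 0.18, limma adjusted p = 0.0117) and the elastic fibre gene Eln (−0.57 ± 0.13), with Fn1, Ccn2, Timp3, Mmp14 and Col3a1, a share of 31.8% beside 10.8% of all genes. At an unadjusted p under 0.05, 0 were higher and 12 lower, again without a share of all genes. The authors' deposited table has 0 and 9, beside 1176 higher and 1468 lower of all 13478 genes. Here the lower count ran from 1 to 10 without a library and was 1 in replicates 1 and 2 alone. The medians were −0.09 in CD1, −0.14 at e11.0 and −0.19 at e11.5, beside 0.01, −0.07 and −0.02 over all genes.

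Listed genes within 1 Mb of the start of Rxfp1 on chromosome 3 were read in the same fits. Their log2 fold changes in CD1 ran from −0.03 (Ppid) to 0.19 (Fam198b). Rxfp1, at 2.51, was chosen for this contrast, so its larger difference is no result about the locus. Of these 8 genes 0 were called by limma in CD1, beside 5.87% of all genes, and for 8 genes that count is near the share. Among them 1, Fam198b, was higher at an unadjusted p under 0.05 and in the authors' deposited table. The authors call 643 of 13540 genes higher, and no share of all genes is given for the unadjusted p. Gm26984 inside the gene was not listed in CD1. Tmem144, the nearest listed gene on the higher-coordinate side with a start 114.9 kb away, was not called in any comparison (limma adjusted p = 0.904, 0.983 and 0.950).

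In the e11.0 null 3 of 9 neighbours were called higher, beside 4.73% of all genes. They were Gm26984 inside the gene, Ppid, a cyclophilin (0.30 ± 0.06, limma adjusted p = 0.0214), and Fam198b (0.26 ± 0.07, adjusted p = 0.0419). Gm26984 is no independent neighbour, because its reads cannot be told apart from unspliced RNA of Rxfp1, the gene chosen for this contrast. The count that includes it is therefore not read as a result about the neighbours. The calls of Ppid and Fam198b each held in 1 of 6 fits without a library. At e11.5 Ppid was the 1 gene of 9 called, and it was higher (0.20 ± 0.06, limma adjusted p = 0.0480), in 2 of 6 such fits, and 1 of 9 is close to the 10.8% of all genes called. At e11.0 the differences of Gm26984, Ppid and Fam198b were 0.67, 0.30 and 0.26, beside 1.0 for Rxfp1, and at e11.5 that of Ppid was 0.20 beside 0.37.

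A window of 2 Mb adds Gria2, a glutamate receptor subunit, which was lower in CD1 hindlimb (−2.21 ± 0.12, limma adjusted p = 1.02e-05) and higher in the e11.0 null (0.53 ± 0.13, adjusted p = 0.0304). Pdgfc was lower in CD1 hindlimb (−0.22, adjusted p = 0.0293). With them 2 of 11 listed genes were called in CD1, both lower, beside 3.46% of all genes, and 4 of 12 in the e11.0 null, all higher, beside 4.73%. The e11.0 count again includes Gm26984.

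**Figure D3:**
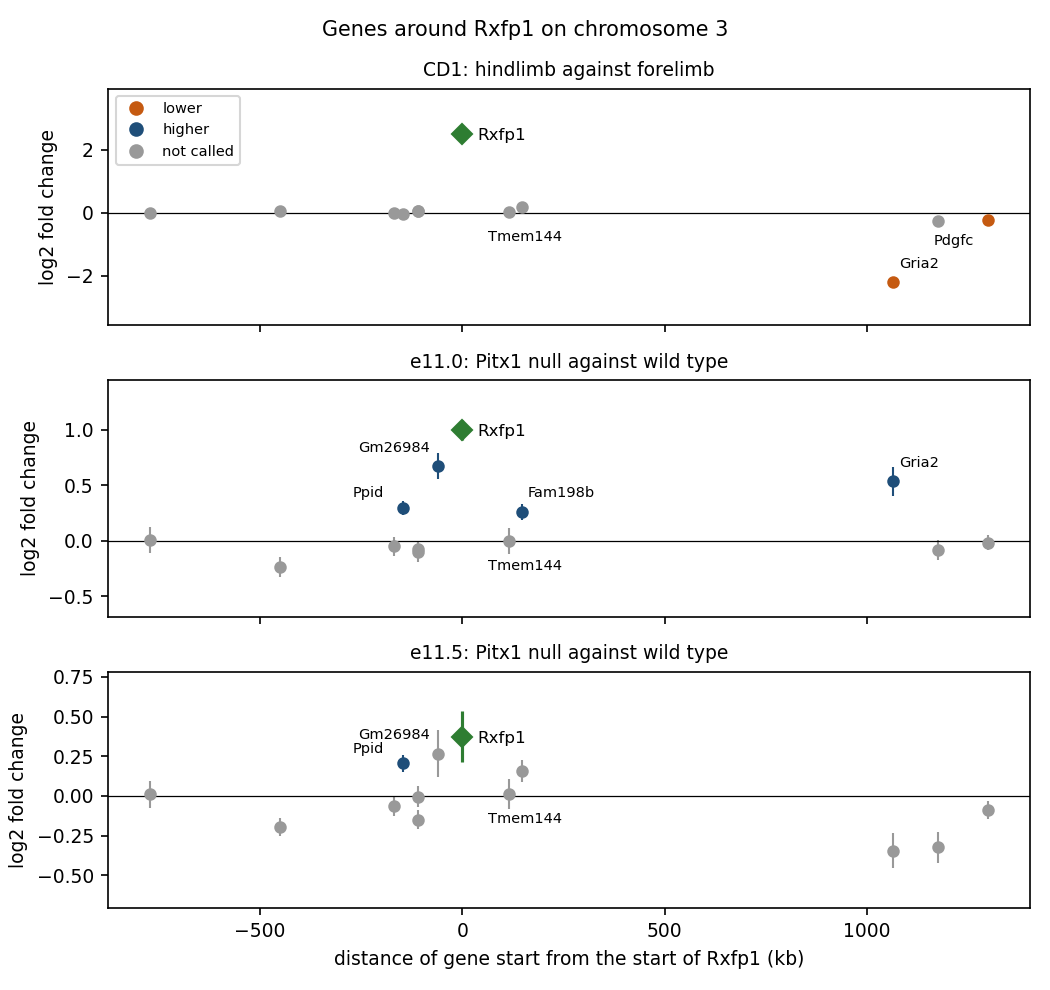
Log2 fold change (vertical axis, a separate scale in each panel) of listed genes by distance of their start from the start of Rxfp1 in kb (horizontal axis). Bars are SE, colours give the limma call, and the diamond is Rxfp1, which was not tested. In CD1 the genes within 1 Mb lie near 0, and Rxfp1, at 2.51, was chosen for this contrast.

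The genes whose levels ran most like Rxfp1 were sought over the 18 libraries, after each table and run class had been centred, among 12472 genes. The correlation is a description, since libraries share a table, a run and a depth, and each replicate 3 has only 1 partner in its table, so that their centred values mirror each other. Isl1 was closest (Pearson r = 0.94), followed by Pdlim3, an actinin-binding protein of muscle (0.93), Yju2, a splicing factor (0.90), and Adh1, an alcohol dehydrogenase (0.89). Gm53 (0.88), 5033428I22Rik (0.87), Cenpv (0.87) and Galnt16 (0.87) came next. The coefficient passed 0.9 for 3 genes and was under −0.9 for 8, and its median over all genes was −0.09.

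These genes were picked on the same libraries, so their values are given as a description with no test. Isl1 had a mean of 1.22 ± 0.08 CPM for forelimb and of 14.1 ± 1.36 CPM for hindlimb, a log2 difference of 2.77 ± 0.10. In the null the difference was 0.50 ± 0.11 at e11.0, with overlapping groups, and −0.20 ± 0.08 at e11.5. Pdlim3 averaged 0.872 ± 0.154 CPM in the forelimb libraries and 3.19 ± 0.55 CPM in the hindlimb ones (1.16 ± 0.13), and 4.62 ± 0.57 CPM in e11.0 wild type and 8.97 ± 0.67 CPM in e11.0 null (0.83 ± 0.10). At e11.5 its difference was 0.29 ± 0.11. For the rest of the most like genes the e11.0 null difference ran from 0.09 (Yju2) to 0.47 (Adh1).

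Running opposite to Rxfp1 were Sim2 (r = −0.95), a bHLH-PAS factor, Hoxd9 (−0.94), Cyth3 (−0.93) and Plk2 (−0.93). Sim2 was at 15.9 ± 3.94 CPM in CD1 forelimb and 5.24 ± 1.64 CPM in CD1 hindlimb, a log2 difference of −1.44 ± 0.08. In the null the difference was −0.73 ± 0.17 at e11.0 and −0.27 ± 0.07 at e11.5.

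**Figure D4:**
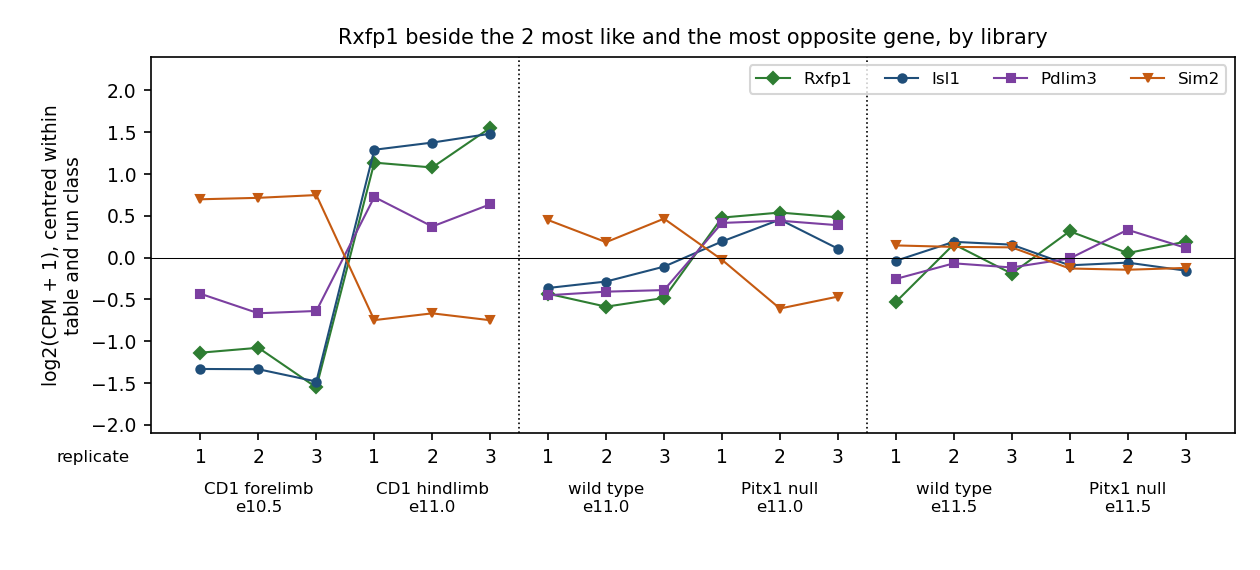
Level as log2(CPM + 1), centred within each table and run class (vertical axis), of Rxfp1, Isl1, Pdlim3 and Sim2 in each of the 18 libraries (horizontal axis, replicate number under its group). Dotted lines part the 3 tables. Over all libraries Isl1 and Pdlim3 run with Rxfp1 (r = 0.94 and 0.93) and Sim2 runs against it (r = −0.95), most widely in the CD1 libraries. In the e11.5 null the log2 difference of Isl1 is −0.20 while that of Rxfp1 is 0.37.

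Rxfp1 can be set beside the other genes of the CD1 hindlimb. Apart from it, 28 genes were called higher in CD1 hindlimb with a log2 fold change of at least 1. In the e11.0 null 26 of them were listed, of which 13 were lower, 5 were higher and 8 were not called, with a median of −0.40, beside 8.41% of all genes lower and 4.73% higher. The 13 lower genes include Pitx1, the gene targeted in the null, whose fall was given by the genotype. They also include Tbx4 (−1.19 ± 0.11, limma adjusted p = 0.000295), the T-box factor of the hindlimb, Hoxa13 and Hoxc10. The call of Hoxc10 held in 2 of 6 fits without a library and was lost under TMM scaling (limma adjusted p = 0.0775). That of Hoxa13 held in 3 of 6 fits. The higher genes were Isl1, Pdlim3, Wnt2 (0.85 ± 0.22), the retinoic acid synthesis gene Aldh1a2 (0.63 ± 0.16) and the globin Hbb-bs (0.61 ± 0.16), the last 3 being named after their values were seen. The Rxfp1 difference of 1.0 is not ranked against these 5, because the gene was chosen with this contrast in view. The counts were 5 to 14 lower and 1 to 6 higher when a library was left out.

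At e11.5, 27 of the 28 were listed, of which 0 were higher, 9 were lower and 18 were not called by limma, with a median of −0.27, beside 7.96% of all genes lower and 2.83% higher. The 9 lower genes again include the targeted Pitx1. At an unadjusted p under 0.05, 3 were higher and 16 lower, with no share of all genes given. The authors' deposited table has 3 and 13, beside 1176 higher and 1468 lower of all 13478 genes. Aldh1a2, higher at e11.0, was among the lower genes (−1.06 ± 0.25, limma adjusted p = 0.0298). Without a library the counts were 6 to 12 lower and 0 to 3 higher.

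**Figure D5:**
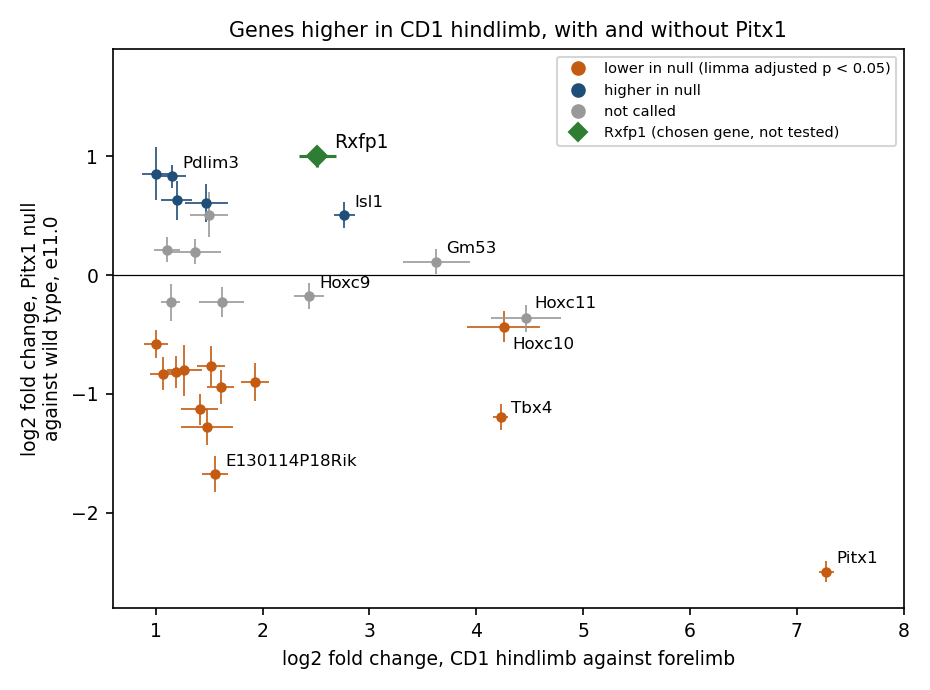
Log2 fold change in CD1 hindlimb against forelimb (horizontal axis) and in Pitx1 null against wild type at e11.0 (vertical axis) for 26 genes called higher in CD1 hindlimb by a log2 of at least 1, with Rxfp1 as a diamond. Bars are SE and colours give the limma call in the null. Of the 26 genes 13 lie below 0 as called lower, the targeted Pitx1 among them, and 5 above as called higher. Rxfp1, the chosen gene, is at 2.51 and 1.0.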

How the data were processed

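RNA was measured in 18 limb bud libraries. Reads were aligned with STAR, counted per gene with featureCounts and analysed with edgeR against GRCm38 (mm10), per the submitters' processing notes, and versions and the strand setting of the counting are not given in the sources used here. The authors deposited 3 tables, 1 for each comparison, with CPM of every library, scaled to the reads on listed genes. They also deposited a log2 fold change and a mean log2 CPM, a likelihood-ratio score, and a p-value with its adjusted form, per the file headers.

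All CPM values were whole multiples of 1 read within 0.01 read, which gave the depth and the counting intervals (95%, exact) but no test. The planned count tests were not run, because a separate unit check, which looks only at low values, accepted whole reads for only part of the libraries. Log2(CPM + 1) values of each table were fitted by themselves with limma-trend (limma 3.58.1, R 4.3.3), group and run being the terms and 3 the residual degrees of freedom. A gene is called at a two-sided p under 0.05 after Benjamini-Hochberg adjustment over its whole table. The script was tested on simulated data.

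Rxfp1, the lists and the tests were chosen with earlier results of these data known. Named genes were Rxfp1, listed members of the receptor lists, up to 4 called members of largest change for each other list and comparison, Pitx1, Tbx4 and Tbx5, called neighbours, the 8 most like and 4 most opposite genes, and those next to Rxfp1 in order of difference. Further genes are named to complete short counts. GENCODE release M 21 holds the identifiers of 13519, 14004 and 13463 of the genes. Same-numbered libraries deviated together from their group means (r from 0.637 to 0.939 for the 9 pairs), which includes the shared run. These values exceed 0.1, so the replicate block was also fitted. Alternatives were no run term, another pseudocount, a filter on mean CPM, 3 scalings, replicates 1 and 2 alone and leaving out each library.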

Additional observations from a re-analysis of the deposited data

Results flagged for a closer look

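Isl1, the gene most like Rxfp1, had a log2 fold change in the Pitx1 null of 0.50 at e11.0 and −0.20 at e11.5. It stands here because each same-numbered pair of libraries went up at e11.0 and down at e11.5. The long non-coding RNA gene 5033428I22Rik, also among the genes most like Rxfp1, had 0.15 at e11.0 and −0.092 at e11.5, with every pair again going opposite ways. The difference between the days was not tested for either gene, since the days are in separate tables made with different RNA selection.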

How the results depend on the processing

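The Rxfp1 log2 difference kept its sign under every alternative run in each comparison. It was 2.51 in CD1, 1.0 at e11.0 and 0.37 at e11.5 without and with the replicate block. The design fixes this in advance. Same-numbered libraries are present in both groups, so neither the run term nor the block can change the difference. It moved to 4.16 in CD1 with a pseudocount of 0.25, and the authors' deposited table gave 7.66 in CD1 and 1.13 at e11.0. Leaving out each library gave 2.22 to 2.61, 0.95 to 1.04 and 0.18 to 0.57.

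The counts of called genes depended far more on the setting. From 795 in CD1, 1843 at e11.0 and 1455 at e11.5, they went to 13, 5 and 11 with no run term, and to 471, 199 and 483 in replicates 1 and 2 alone. The authors' deposited table calls 1689, 2895 and 2644. With the replicate block the e11.0 count was 3442. Leaving out each library gave 394 to 1191 in CD1, the ends being without hindlimb and forelimb replicate 1, 116 to 5273 at e11.0, without wild-type replicates 1 and 2, and 433 to 2627 at e11.5, without null replicates 2 and 1. The cause was not tested. The block also called Fn1, Lox, Hoxc11, Galnt16, Cyth3 and Hoxd9 at e11.0 and Epha3 at e11.5, and it no longer called Ccn2 and Sim2 at e11.5. It changed no other call of a named gene. Over all alternatives, 1863 values of single named genes kept their direction and side of the threshold, 209 lost the call, 56 gained it and 0 reversed. Of 225 list counts 67 moved. With centring by table alone, r of the 8 genes most like Rxfp1 was 0.58 to 0.89 and Spearman's rho 0.76 to 0.94. For the 4 most opposite genes they were −0.75 to −0.47 and −0.95 to −0.89. The tests on recovered reads with edgeR and DESeq2 were not run. Depth limits the forelimb level of Rxfp1, which rests on 3 reads.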

Other observations

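The 11 genes with a wider positive gap than Rxfp1 between replicate 3 and replicates 1 and 2 at e11.5 were picked after their values were seen. They include the mitochondrial gene mt-Nd6, at 11.53 to 17.2 CPM in replicates 1 and 2 and 328 to 361 CPM in replicate 3, and Degs2, a sphingolipid desaturase, at 0.760 to 1.10 CPM against 15.7 and 16.7 CPM. Gm26825, 9530082P21Rik, Gm47283, Gpld1, Gm45133, Ocel1, CT010467.1, AC149090.1 and Xist are the others.

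Xist, the X-inactivation RNA, was at 0.0844 and 0.231 CPM in replicate 1 of wild type and null at e11.5, at 139 and 69.1 CPM in replicate 2, and at 585 and 650.2 CPM in replicate 3. The labels do not give the sex of the embryos, and its part in the Rxfp1 values was not tested.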
